A study of Rattus norvegicus with 12 samples.

Results

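The comparison asked what the cells of a bioprinted endometrial patch added to its printed matrix in injured rat uterus. The EEP libraries came from tissue that had received the patch carrying cells, and the CP libraries came from tissue that had received the cell-free control patch, printed from a matrix named Endo-UdECM. The libraries were taken by their labels, 3 EEP and 3 CP, so the comparison used 6 of the 12 libraries of the series. The other 6 libraries, 3 normal and 3 AS, served as reference levels. Of 34034 genes in the count table, 13909 had enough counts to be tested.

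All tissue came from 8-week-old female rats and was profiled by QuantSeq, a 3′ end RNA sequencing method that gives about 1 read per transcript whatever its length, from 1000 ng of RNA and with single-end reads (75 bp). The AS group, and by the design text both patch groups, had the uterine lining scraped with a bent needle, the study's model of intrauterine adhesion. Patches were placed 2 days after that injury. Neither the rat strain nor the species and type of the patch's cells is given in the sources used here, the time of harvest is not given either, and no genetic change is named for any group. The labels do not say that the replicates are separate animals, and the opposite horn of an EEP animal could itself be a control or carry a CP, so the p-values speak only of the spread from library to library.

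The endometrium is the inner layer of the uterus, made of a simple epithelium with glands over a stroma, and it lies on the smooth muscle of the myometrium. Intrauterine adhesion is scarring of that lining, in which stroma and matrix take the place of functional epithelium. Stratified epithelium, the layered kind that lines the vagina and skin, is built on a basal layer marked by the keratins Krt5, Krt14 and Krt15 and is not part of a normal endometrium.

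Total counts ran from 4866790 to 8077591 over the 6 libraries, and 14250 to 18212 genes were detected in each. The 37 mitochondrial genes took 18.9%, 53.6% and 76.3% of the counts in EEP 1, 2 and 3 and 82.5%, 66.5% and 64.8% in CP 1, 2 and 3. The mean share stood 21.6 percentage points lower in EEP, with overlapping groups and a two-sided exact permutation p of 0.3 (n = 3 against 3, where the smallest possible p is 0.1). EEP 1 therefore had the most nuclear counts, 5832552, and EEP 3 the fewest, 1202525. EEP 1 also stood apart in epithelial RNA: Krt8, a keratin of simple epithelium, stood at 324 CPM in EEP 1 against 14.3 and 16.2 in EEP 2 and 3, and at 141, 25.9 and 15.8 in CP 1, 2 and 3. CPM here are counts scaled to library size and by TMM, which sets libraries on a common level through the bulk of their genes. The TMM factors differed widely, from 0.49 in CP 1 to 2.36 in EEP 1, with 0.68 in EEP 3. Values in EEP 1 are therefore lower, and those in CP 1 and EEP 3 higher, than by library size alone. Smooth muscle RNA was abundant in tissue labelled Endometrium: Myh11, the smooth muscle myosin heavy chain, stood at 368, 807 and 496 CPM in EEP and at 802, 616 and 721 CPM in CP. Myh11 overlapped between the groups. The epithelial marker Epcam (37.9 to 206 CPM), the stromal marker Pdgfra (28.4 to 68.9 CPM), the endothelial marker Pecam1 (2.19 to 35.8 CPM) and the leukocyte marker Ptprc (13.1 to 36.7 CPM) were detected in all 6 libraries. In bulk tissue fewer cells of a type and less RNA per cell cannot be told apart, and this holds for every gene below.

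Across all genes, the cell-laden and the cell-free patch were not separated at this depth and number of libraries. By edgeR's quasi-likelihood test with Benjamini-Hochberg adjustment, 0 of 13909 genes (0%) passed an adjusted p of 0.05, and the smallest adjusted p was 0.9997. Before adjustment, 260 genes higher in EEP (1.87%) and 156 lower (1.12%) had a p under 0.05. Together they were 2.99% of the genes, fewer than a threshold of 0.05 would pass on average if no gene differed. The median log2 fold change was 0.04, and 52.7% of genes had a value above 0. DESeq2 called 1 of the 13854 genes for which it gave an adjusted p (0.00722%), namely Fndc1. The edgeR test without a low-count filter called 5 of 22391 genes (0.0223%), namely Cyp26a1, Pnoc, Slpi, Spink5 and Tmtc2. The median standard error of a log2 fold change was 0.64, so for a typical gene only a change of several-fold could have stood out. In the authors' deposited table, 479 genes had an unadjusted p under 0.05 for the same pair of groups, and every q-value was 0.99999. The genes described from here on are therefore levels in these libraries, and none of them passed the edgeR test over all genes at the filter used.

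**Figure D1:**
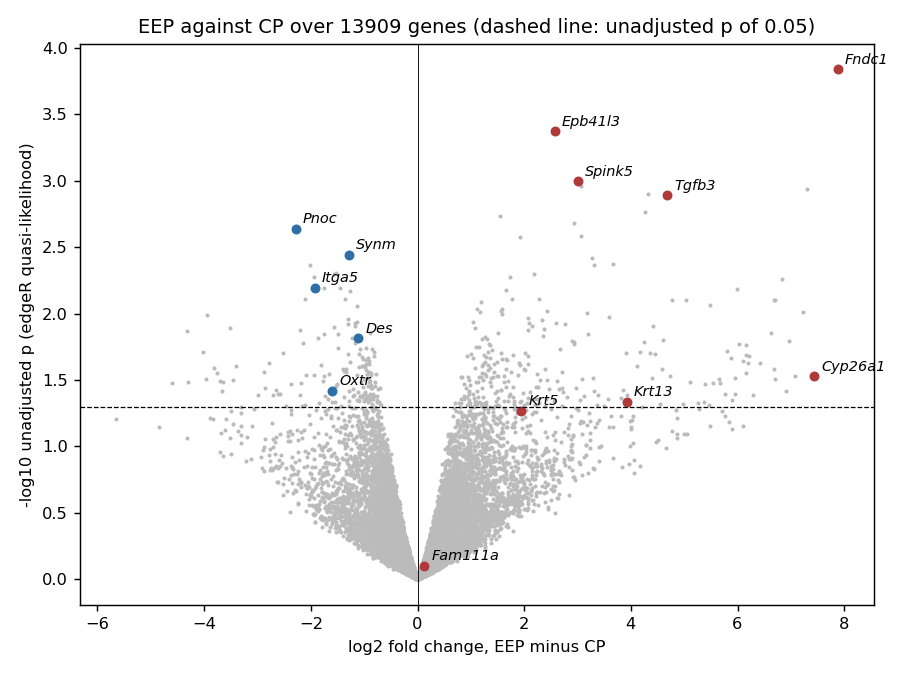
Log2 fold change of EEP minus CP (horizontal) against −log10 of the unadjusted edgeR p (vertical) for 13909 genes, 1 grey point each, with genes named in the text in red (higher in EEP) and blue (lower). Few genes lie above the dashed line, and the fitted fold changes of genes with 0 counts in CP (Fndc1, Cyp26a1) depend on the prior count and are not sizes.

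Spink5, which encodes an inhibitor of skin-type serine proteases made by stratified epithelia, ranked 3 by unadjusted p among genes higher in EEP. Earlier results of these data had also named it. Its gene lies on the plus strand of chromosome 18, from 36264452 to 36333143 (mRatBN7.2). Spink5 stood at 29.6, 38.1 and 41.6 CPM in EEP 1, 2 and 3. In CP 1, 2 and 3 it stood at 0.251, 4.20 and 8.94 CPM. All 3 EEP libraries lay above all 9 others, since normal tissue reached at most 0.768 CPM and AS tissue at most 0.198 CPM. The means were 36.5 ± 6.17 CPM in EEP and 4.46 ± 4.35 CPM in CP (SD, n = 3 each), a log2 fold change of 3.00 (SE 0.75) with an unadjusted edgeR p of 0.00101 and an adjusted p of 0.9997. Over the alternatives tried, the adjusted p of Spink5 ran from 0.012, without a low-count filter, to 1. Leaving out 1 library at a time, its log2 fold change ran from 2.47 without CP 1 to 3.98 without CP 3. Of the 13909 genes, 44 (0.316%) had all EEP libraries above all 9 others. Spink5 was the only gene of the 12 with the smallest p among those higher in EEP that did so. Its place describes these libraries and tests nothing.

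The promoter of Spink5 is shown because its transcript set the EEP libraries apart. The sequence is from RefSeq (build GRCr8, a later build than that of the gene coordinates), chr18:36515097-36515396 on the plus strand, with 250 bases before and 50 after the start site. Capitals mark TATAAA on either strand, the core of a TATA box, which places the start of transcription in many strongly tissue-restricted genes.
Spink5: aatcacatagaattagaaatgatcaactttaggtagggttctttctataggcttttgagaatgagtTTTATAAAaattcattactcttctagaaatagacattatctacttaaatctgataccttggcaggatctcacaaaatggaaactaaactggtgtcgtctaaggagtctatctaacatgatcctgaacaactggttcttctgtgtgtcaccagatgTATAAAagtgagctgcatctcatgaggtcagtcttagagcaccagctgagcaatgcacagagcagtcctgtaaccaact
The window held 3 matches, 2 of which overlap, and 1 of them began 29 bases before the start site. TATAAA on either strand was found in 14.2% of the 33469 promoters of the same length, so a match is common, and it is no evidence that the site is used. The Krt5 promoter window had 0 matches to these letters.

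Krt5 and Krt15, like Spink5, had a higher mean in EEP than in CP, and a higher mean in CP than in normal or AS tissue. Krt5, a keratin of the basal layer, stood at 27.4, 17.1 and 11.0 CPM in EEP 1, 2 and 3 and at 0, 8.9 and 5.33 CPM in CP 1, 2 and 3. The groups did not overlap, and normal tissue (at most 0.192 CPM) and AS tissue (0 counts in all 3 libraries) lay below nearly all of them, CP 1 being the exception. The log2 fold change of Krt5 was 1.95 (SE 0.93) with an unadjusted edgeR p of 0.0536 and an adjusted p of 0.9997. Krt15, another basal keratin, was picked after its values were seen. It stood at 64.7, 52.2 and 39.3 CPM in EEP and at 4.78, 17.5 and 22.3 CPM in CP, with at most 2.88 CPM in normal and 8.71 CPM in AS tissue. All EEP libraries lay above the other 9 for Krt5 and Krt15. Krt13, a keratin of the upper layers of moist stratified epithelia, was scarcer, at 7.15, 6.75 and 1.16 CPM in EEP and 0, 0.168 and 0.761 CPM in CP. Krt13 had 0 counts in normal tissue but 6.03 CPM in AS 1, above EEP 3. Krt14, the partner of Krt5 in basal filaments, overlapped between the groups, at 11.8, 3.6 and 5.2 CPM in EEP and 0, 0.504 and 6.85 CPM in CP.

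**Figure D2:**
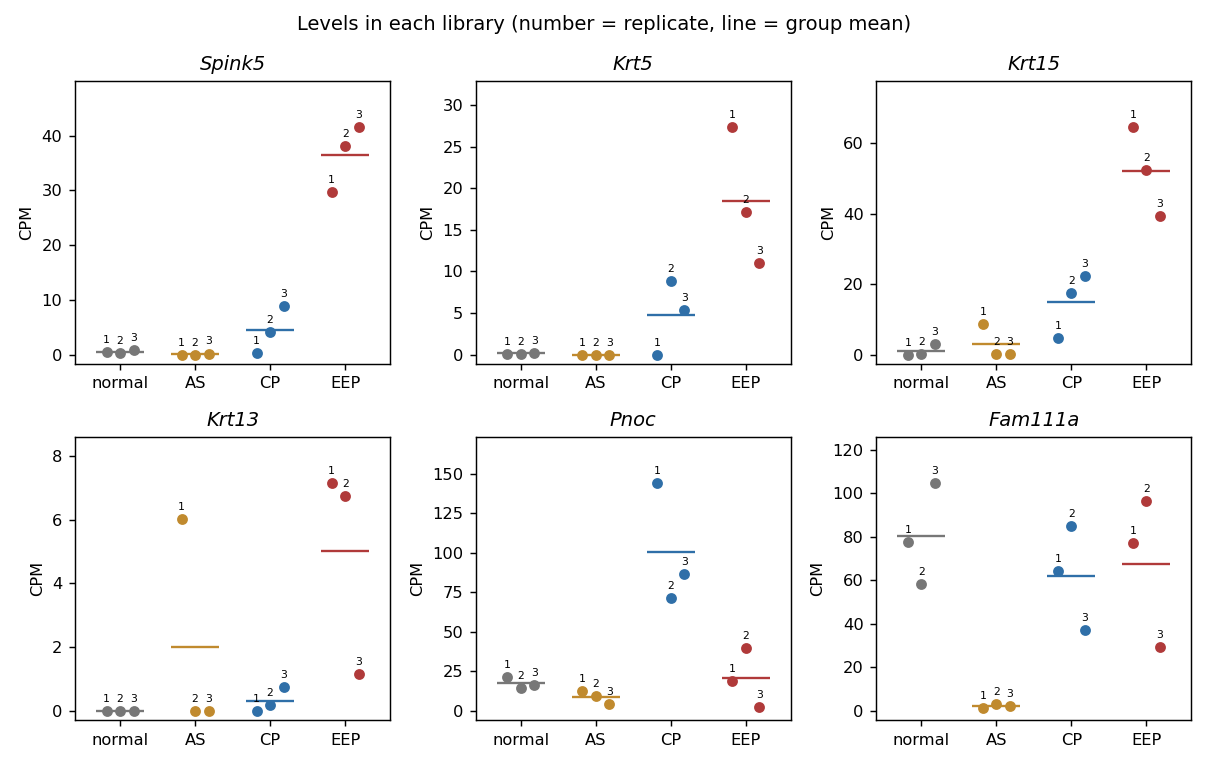
CPM in each of the 12 libraries (points, numbered by replicate) with the group mean (line) for 6 genes, in normal, AS, CP and EEP tissue. Spink5, Krt5 and Krt15 were lowest in normal and AS tissue and highest in EEP, Pnoc was highest in CP, and Fam111a was low in AS alone.

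Of 28 listed genes of stratified epithelium, 12 could be tested, and 10 of them had a log2 fold change above 0, with a median of 1.16 against 0.04 over all genes. Not overlapping and higher in EEP were 4 of the 12 (Spink5, Krt5, Krt15 and Krt13), against 538 of all 13909 genes (3.87%). That share tests nothing, because a member scarce elsewhere could pass the low-count filter through its EEP level. Spink5, for example, reached the cutoff in 3 EEP, 2 CP, 0 normal and 0 AS libraries. Only 2 of the 12, Spink5 and Krt13, had an unadjusted edgeR p under 0.05. Both were higher in EEP, against 1.87% of all genes, and for the same reason that share tests nothing. Leaving out 1 library at a time, 7 to 11 of the tested members stood higher in EEP. The list's median was -0.06 once the mitochondrial share entered as a covariate. The summed level of the listed genes was 146 to 337 CPM in EEP, 99.1 to 138 CPM in CP, 50.2 to 130 CPM in normal and 41.1 to 384 CPM in AS tissue, so AS 1 lay above every EEP library. Dsc3, Sprr1b, Klk7 and the cornified-layer gene Loricrin had 0 counts in all 6 patch libraries. The basal master regulator Tp63 was too scarce to be tested, at 0.355, 0.450 and 0 CPM in EEP and 0, 2.18 and 0.381 CPM in CP. Evpl, an envelope protein of the same epithelia, had the lowest fold change of the list, at -0.93 on the log2 scale (SE 0.50). Krt5 was also a member of the list for mesothelium and oviduct contact. In that list 5 of 8 tested genes were higher in EEP, with a median of 0.28, or -0.04 without EEP 1. Whether the transcripts of the stratified epithelium list came from the patch's cells or from the host was not tested.

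The other genes ranked highest for EEP were of another kind: they were low in CP while EEP stood near normal and AS tissue. In 11 of the 12 highest-ranked genes all 3 CP libraries lay below all 9 others, a pattern that 108 of all genes (0.776%) showed. All 108 were among the 538 genes that did not overlap and were higher in EEP. The 12 were ranked on that same gap and none of them overlapped, so their share tests nothing. Fndc1, a fibronectin type III domain protein encoded on chromosome 1, had 0 counts in all CP libraries and 1.54, 3.90 and 6.65 CPM in EEP 1, 2 and 3. Pooled over the group, EEP had 75 counts, at least 14-fold higher than the 3 counts that a total of 0 allows. Normal tissue stood at 1.80 to 2.95 CPM and AS tissue at 2.57 to 4.69 CPM, so the absence was in CP. DESeq2 gave Fndc1 an adjusted p of 0.0379, whereas over the other alternatives and edgeR its adjusted p reached 1. Mettl25, a methyltransferase-like protein, also had 0 counts in CP and 83 in EEP, at least 15.5-fold higher by the same floor. Tgfb3, a ligand of the TGF-beta pathway, had 2 counts in all of CP and 86 in EEP, a pooled ratio of 24.2 (95% counting interval 6.49 to 203). Tsfm and Nsun4, which serve translation inside mitochondria, had pooled ratios of 22.8 (7.64 to 112) and 22.8 (6.10 to 191) over 3 and 2 counts in CP. These intervals cover counting error only, and these are genes of few reads, since the CP mean was at most 9.003 CPM over the 12.

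Epb41l3, a protein that ties the membrane to the cytoskeleton, was better covered. It stood at 1.26, 1.51 and 2.28 CPM in CP and at 11.2, 6.90 and 12.4 CPM in EEP, while normal tissue stood at 10.2 to 25.0 CPM and AS tissue at 9.54 to 30.3 CPM. Its log2 fold change was 2.57 (SE 0.59, edgeR adjusted p 0.9997). Cluh, which binds messages for mitochondrial proteins, stood at 10.6, 7.89 and 8.56 CPM in CP and at 39.96, 25.1 and 13.6 CPM in EEP, without overlap. Agpat3, an enzyme of phospholipid synthesis, stood at 2.01, 3.53 and 4.57 CPM in CP against 9.58, 9.91 and 19.7 CPM in EEP. Cnppd1, Galnt16 (a glycosyltransferase) and Eefsec (an elongation factor for selenoproteins) complete the 12, with log2 fold changes of 3.07, 2.93 and 3.07. Plau, the urokinase-type plasminogen activator that starts matrix breakdown, had the same arrangement, at 7.29, 5.71 and 8.94 CPM in CP, 18.7, 12 and 12.4 CPM in EEP and at least 12.5 CPM in every AS and normal library. Mfap4 and Fap, both made by fibroblasts, and Yap1, a transcriptional coactivator, also lay lowest in CP, and were picked after their values were seen. The listed genes of endometrial stroma were divided, with 12 of 21 tested higher in EEP and 9 lower. Mfap4 stood at 6.03 to 49.7 CPM in CP and 59.0 to 74.6 CPM in EEP, Fap at 0.754 to 1.90 and 3.13 to 13.3 CPM, and Yap1 at 21.3 to 22.9 and 26.6 to 47.2 CPM.

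**Figure D3:**
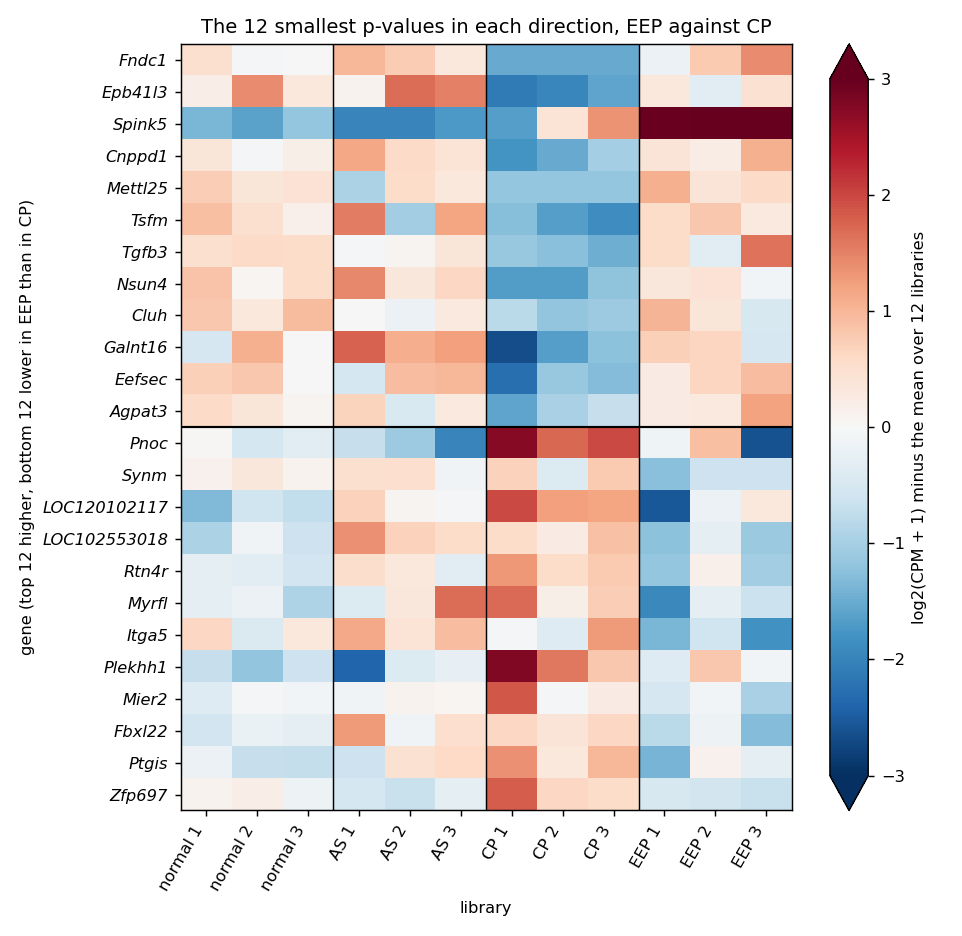
Each cell is the log2(CPM + 1) of a gene in a library minus that gene's mean over the 12 libraries, for the 12 genes with the smallest p in each direction. In the upper block the 3 CP columns are blue for all genes but Spink5, whose 3 EEP columns are dark red, and the other groups vary from gene to gene; in the lower block the CP columns are mostly red.

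Among genes higher with the cell-free patch, Pnoc led. Pnoc encodes the precursor of nociceptin, a neuropeptide of the opioid family, and lies on chromosome 15 from 39624635 to 39652463. It stood at 144, 71.7 and 86.4 CPM in CP and at 19.0, 39.8 and 2.60 CPM in EEP. Normal tissue stood at 14.2 to 21.4 CPM and AS tissue at 4.55 to 12.6 CPM, so all CP libraries lay above the other 9. Its log2 fold change was -2.28 (SE 0.63, unadjusted edgeR p 0.00229, adjusted p 0.9997), and its adjusted p ran from 0.00447 without a low-count filter to 1 over the alternatives. That pattern, CP above all 9 others, held for 106 of all genes (0.762%) and for 4 of the 12 ranked lowest. Ranking was by the gap between EEP and CP, so such shares among the 12 test nothing. Rtn4r, a receptor for myelin inhibitors of axon growth, stood at 30.4, 17.6 and 20.9 CPM in CP and at 4.73, 13.2 and 5.2 CPM in EEP. Zfp697, a zinc finger protein, stood at 14.3, 5.71 and 5.33 CPM in CP and at 1.73 to 2.13 CPM in EEP. Both had CP above the 9 other libraries, as did 1 locus without a gene name, annotated as a small nuclear RNA of the minor spliceosome.

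Ptgis, the synthase of prostacyclin, which relaxes vessels and uterine muscle, stood at 354, 171 and 272 CPM in CP and at 51, 150 and 111 CPM in EEP. Its log2 fold change was -1.35 (SE 0.45), and normal tissue (83.2 to 121 CPM) lay with EEP. Plekhh1 stood at 438, 188 and 111 CPM in CP and at 47.7, 111 and 59.0 CPM in EEP, overlapping by a narrow margin at 111. It was the only one of these 12 to overlap. Across all genes 427 (3.07%) did not overlap and were lower in EEP. Myrfl, Mier2 and Fbxl22 also stood lower without overlap, with log2 fold changes of -1.94, -1.45 and -1.27, and Mier2 rested largely on CP 1, at 92.5 CPM against 23.7 and 29.5 in CP 2 and 3. Without CP 1 the value for Mier2 was -0.58.

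In 2 of the 12, EEP itself lay below all 9 others, which 35 of all genes (0.252%) showed. Synm encodes synemin, an intermediate filament protein of muscle that binds desmin. It stood at 13.8, 22.1 and 22.3 CPM in EEP and at 56.3, 25.9 and 59.9 CPM in CP, with 37.0 to 44 CPM in normal and 31.8 to 49.5 CPM in AS tissue. Itga5 encodes the integrin subunit by which cells hold fibronectin. It stood at 2.31, 4.65 and 1.45 CPM in EEP and at 7.29, 5.54 and 19.8 CPM in CP, and was lowest in EEP. Of the 24 ranked genes, all kept the sign of their fold change under each of the alternatives that could be fitted. They were chosen by their p in the same comparison, so the kept sign was largely fixed by that choice.

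Smooth muscle genes leaned towards CP. Of 20 tested, 15 had a log2 fold change below 0 and 5 above, with a median of -0.33. An unadjusted p under 0.05 was reached by 3 of the 20, all lower in EEP, against 1.12% of all genes. Not overlapping and lower in EEP were 4 of the 20, against 3.07% of all genes, and Smtn did not overlap in the other direction. Des, which encodes desmin, the muscle intermediate filament, stood at 161, 142 and 176 CPM in EEP and at 443, 201 and 391 CPM in CP. Its log2 fold change was -1.11 (SE 0.41, edgeR adjusted p 0.9997), and its EEP values lay near the 128 to 155 CPM of normal tissue, whereas AS tissue held 257 to 655 CPM. Oxtr, the oxytocin receptor of contracting muscle, stood at 1.06, 15.9 and 3.18 CPM in EEP and at 20.9, 17.6 and 22.6 CPM in CP, with EEP 2 close to CP. Myocd, the coactivator that switches on smooth muscle genes, stood at 8.87, 20.1 and 17.6 CPM in EEP and at 26.4, 32.7 and 39.96 CPM in CP. Pcp4, a calmodulin-binding protein, overlapped, at 59.5, 109 and 33.8 CPM in EEP and 86.0, 150 and 191 CPM in CP. Myh11, given above, had a log2 fold change of -0.36 (SE 0.36). Acta2, the smooth muscle actin, overlapped and had a value above 0: it stood at 782, 363 and 186 CPM in EEP and at 365, 270 and 531 CPM in CP, a log2 fold change of 0.19 (95% interval -0.79 to 1.17). The list's summed level was 2671 to 4761 CPM in EEP and 3924 to 5813 CPM in CP, with overlap. Both lay below the 6510 to 8054 CPM of normal tissue and the 8160 to 13920 CPM of AS tissue. The median stayed below 0 under every alternative, from -0.76 with the mitochondrial share as a covariate to -0.15 without CP 3. The pericyte list, which shares Des, had a median of -0.38 with 8 of 9 tested genes below 0, and Cspg4 (1.83) as the exception.

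**Figure D4:**
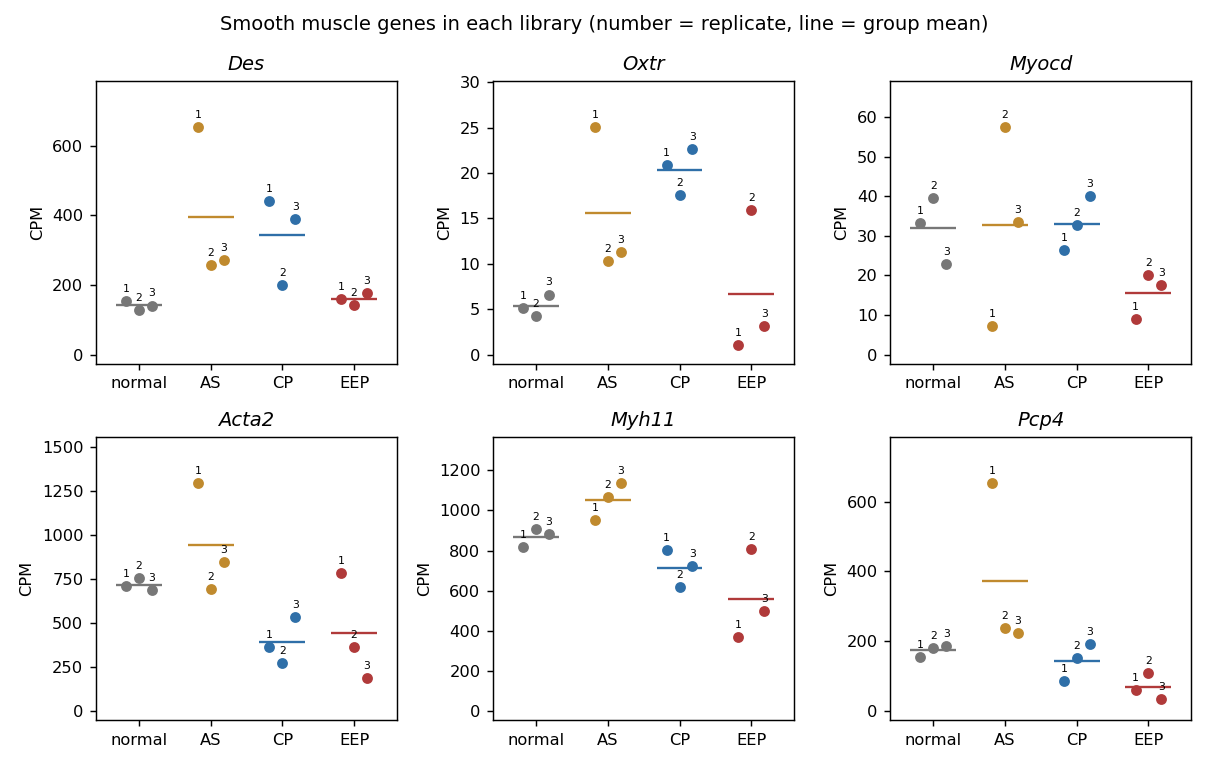
CPM of 6 smooth muscle genes in each of the 12 libraries (points, numbered by replicate) with the group mean (line). Des, Oxtr and Myocd did not overlap between CP and EEP, whereas Acta2, Myh11 and Pcp4 did.

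The epithelium and stroma of the endometrium gave no common direction. Of 24 tested genes of simple epithelium 13 were higher and 11 lower in EEP, with a median of 0.04, and the median ran from -1.24 with the mitochondrial share as a covariate to 0.81 without CP 1. Cldn4, a tight junction claudin, stood at 19.3, 3.6 and 0 CPM in EEP and at 1.51, 1.01 and 0.571 CPM in CP, and its log2 fold change was 2.94 with all libraries and 0.91 without EEP 1. Slpi, a secreted protease inhibitor, stood at 257, 11.0 and 18.5 CPM in EEP and at 52, 6.21 and 11.2 CPM in CP, and Tmtc2 at 49.7, 2.85 and 0.578 CPM against 2.26, 1.85 and 4.38 CPM. Both of these calls without a low-count filter rested on EEP 1: without it, the fold changes were -0.65 and -0.61 on the log2 scale. Sox17, a transcription factor of uterine glands, did not overlap, at 31.1, 24.3 and 34.1 CPM in EEP against 8.55, 19.1 and 20.7 CPM in CP, with 19.6 to 27.6 CPM in the normal and AS libraries. Stroma had 12 of 21 tested genes higher (median 0.16), with Dcn, the proteoglycan decorin, at 281 to 1377 CPM in EEP and 365 to 494 CPM in CP.

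Genes of the scar matrix gave no common direction either. Of 19 collagens 8 were higher and 11 lower, with a median of -0.03, and 0 had an unadjusted p under 0.05. Col4a1, a basement membrane collagen, was the 1 of 19 collagens that did not overlap, a share near the 3.87% higher and 3.07% lower of all genes, at 93.3, 215 and 154 CPM in EEP and 224, 226 and 263 CPM in CP. Of 27 other matrix and crosslinking genes, 13 were higher and 14 lower (median -0.03). Hspg2, the basement membrane proteoglycan perlecan, was the 1 of 27 with an unadjusted edgeR p under 0.05, at -0.89 (SE 0.40). That share is near the 2.99% of all genes in both directions (1.12% lower in EEP). The TGF-beta pathway, which drives fibrosis, had 11 of 24 tested genes higher and a median of -0.13, Tgfb3 being the largest value. In the Wnt pathway 14 of 22 tested genes were higher, with a median of 0.50 and a range of 0.22 to 0.57 over the alternatives. Sfrp1, a secreted Wnt inhibitor, stood at 46.3, 16.7 and 11.3 CPM in EEP and 16.8, 8.9 and 5.71 CPM in CP.

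**Figure D5:**
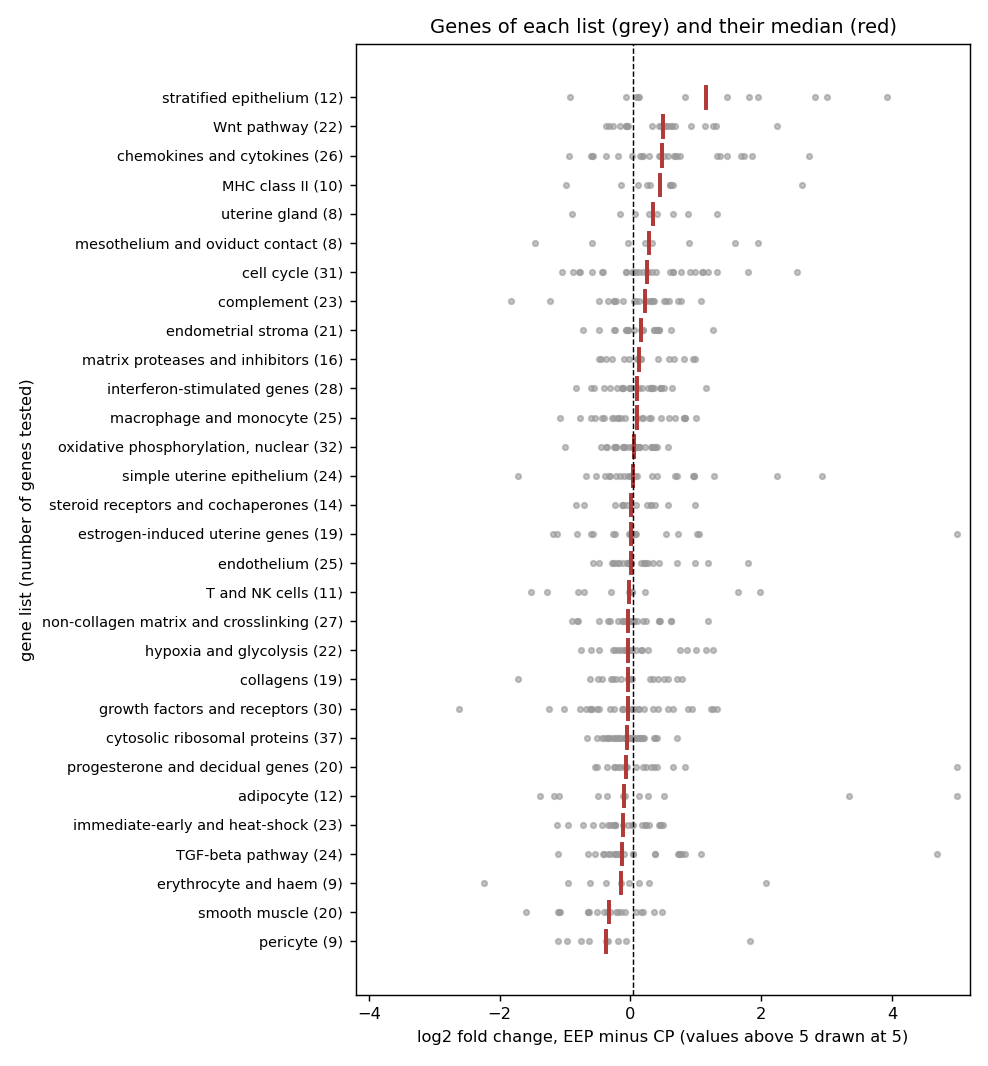
Log2 fold change of EEP minus CP for each tested gene (grey points) of the 30 gene lists with at least 8 tested genes, with the list's median (red) and the median of all genes (dashed). Stratified epithelium has the highest median, 1.16, and pericyte and smooth muscle the lowest, -0.38 and -0.33.

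Hormone response was also divided. Of 19 tested estrogen-induced genes 10 were higher (median 0.01), and of 20 progesterone and decidual genes 9 were higher (median -0.06). Ckb, the brain-type creatine kinase induced by estrogen in the uterus, stood at 255, 307 and 168 CPM in EEP and 516, 297 and 838 CPM in CP, a log2 fold change of -1.18 (SE 0.42). Greb1, another estrogen target, stood at 32.2, 65.7 and 41.3 CPM in EEP and at 62.6, 46.5 and 102 CPM in CP. The receptor gene Esr1 stood at 119, 133 and 82.1 CPM in EEP and 63.1, 99.6 and 62.2 CPM in CP, a log2 fold change of 0.57 (95% interval -0.18 to 1.33).

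Cyp26a1, the enzyme that clears retinoic acid and a member of both hormone lists, was found in EEP 1 alone among the patch libraries, at 8.04 CPM, with 0 counts in EEP 2, EEP 3 and all of CP. It also varied within normal tissue, at 37.1, 0 and 28.4 CPM. The call without a low-count filter therefore rests on 1 library. Its promoter is shown because it holds a match to a response element for the hormone that the enzyme clears. It lies at chr1:244883572-244883871 (plus strand, RefSeq, GRCr8), and capitals mark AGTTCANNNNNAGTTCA, the direct repeat bound by retinoic acid receptors, here read on the opposite strand.
Cyp26a1: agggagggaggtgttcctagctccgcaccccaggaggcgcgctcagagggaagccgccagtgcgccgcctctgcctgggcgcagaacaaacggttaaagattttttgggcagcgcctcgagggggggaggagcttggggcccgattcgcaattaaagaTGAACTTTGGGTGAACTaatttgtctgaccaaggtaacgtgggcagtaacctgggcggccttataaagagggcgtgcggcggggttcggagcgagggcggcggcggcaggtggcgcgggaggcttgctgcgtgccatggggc
The match began 92 bases before the start site, and 3 of the 33469 promoters (0.00896%) held the motif on either strand. Only this exact spelling of the repeat was searched for, so the share is not that of all such elements. The match is no evidence that the site is used.

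Immune gene lists differed in their counts. Chemokines and cytokines had 20 of 26 tested genes higher and a median of 0.48. MHC class II genes, which present antigen, had 8 of 10 higher and a median of 0.45. Both medians came down without EEP 1, to 0.02 and 0.13. Cd74, the invariant chain of class II molecules, stood at 185, 78.5 and 142 CPM in EEP and at 80.2, 84.3 and 100 CPM in CP, overlapping. Cxcl13, which attracts B cells, did not overlap, at 8.81, 11.6 and 15.6 CPM in EEP and 7.79, 7.22 and 6.85 CPM in CP. Macrophage genes (13 of 25 higher, median 0.10) and interferon-stimulated genes (16 of 28, median 0.11) were divided, as were genes of T and NK cells (5 of 11, median -0.02). Hmox1, the haem oxygenase of cells that clear haem, stood at 72.3 CPM in EEP 1 against 6.60 and 19.4 in EEP 2 and 3 and 8.29, 4.36 and 10.8 in CP.

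Cell cycle genes had 22 of 31 tested members higher in EEP, with a median of 0.25 that ran from 0.18 to 0.46 over the alternatives. Cenpf, a kinetochore protein of dividing cells, stood at 15.7, 18.5 and 37.6 CPM in EEP and 3.77, 10.7 and 13.7 CPM in CP. It was the 1 of 31 with an unadjusted edgeR p under 0.05 (log2 fold change 1.32, SE 0.54), against 1.87% of all genes higher in EEP. The summed level of the list was 260 to 319 CPM in EEP and 184 to 290 CPM in CP, with overlap. Normal tissue held 326 to 355 CPM and AS tissue 208 to 253 CPM. The members' mean log2 CPM, set against their mean over all 12 libraries, was -1.33, -0.06 and 0.03 in CP 1, 2 and 3. In EEP 1, 2 and 3 it was 0.47, -0.23 and -0.10. EEP 2 and 3 thus lay below CP 2 and 3, and the gap between the group means rested on CP 1 and EEP 1. Tpx2, a spindle protein, went the other way without overlap, at 2.78, 1.95 and 4.05 CPM in EEP and 7.54, 5.04 and 5.33 CPM in CP. In each direction 1 of 31 did not overlap, shares near the 3.87% higher and 3.07% lower of all genes.

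Growth factors and their receptors were evenly divided, 15 to 15, with a median of -0.04. Egfr, the receptor of epidermal growth factor, stood at 29.4, 23.1 and 8.38 CPM in EEP and 12.6, 6.38 and 7.42 CPM in CP (log2 fold change 1.23, SE 0.56). Its ligand Tgfa stood the other way round, at 1.06, 0.300 and 0 CPM in EEP and 5.28, 2.18 and 2.28 CPM in CP, with 0.791 to 2.18 CPM in the normal and AS libraries. Igfbp6, a binding protein for insulin-like growth factor, stood at 246, 166 and 134 CPM in EEP and 532, 256 and 316 CPM in CP, without overlap. Immediate-early genes, which answer to stress and to handling of tissue, had a median of -0.12, and 3 of the 23 tested did not overlap, all lower in EEP, against 3.07% of all genes. Among them, Zfp36 (tristetraprolin, which destroys cytokine messages) stood at 18.5, 23.3 and 14.7 CPM in EEP and at 40.2, 35.6 and 33.7 CPM in CP. Atf3, a stress transcription factor, stood at 7.27, 9.31 and 7.80 CPM in EEP and 18.1, 10.6 and 11.8 CPM in CP, above all 9 others.

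Fam111a, a nuclear protease that guards DNA replication, showed no difference between the patches that could be detected. It stood at 77.0, 96.2 and 29.2 CPM in EEP and at 64.1, 85.1 and 36.9 CPM in CP, while AS tissue held 1.17 to 3.26 CPM and normal tissue 58.2 to 105 CPM. The log2 fold change was 0.12, with a 95% interval of -0.84 to 1.09 and an edgeR adjusted p of 0.9997. A difference of either sign within that interval is therefore compatible with these libraries. Both patch groups stood near normal and far above AS, with or without cells.

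With normal tissue as a reference, 380 of the 538 genes that did not overlap and were higher in EEP had a normal mean on the EEP side of the midpoint between the patch groups, and 283 had an AS mean on that side. Of the 427 that were lower in EEP, 293 had a normal mean and 245 an AS mean on the EEP side. These genes were chosen for the gap between EEP and CP, so the counts describe where the reference groups lay and test nothing.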

How the data were processed

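The 12 libraries of 3′ end RNA sequencing formed 4 groups of 3 by their labels, and EEP was compared with CP. The authors deposited raw counts for each gene in 1 table, with Bowtie2 and bedtools named per the submitters' processing notes and edgeR per the series' design text, without versions. The same table holds the authors' deposited fold ratio, p-value and q-value for the pair, whose test is not given in the sources used here. The deposited information sheet gives the rat build mRatBN7.2 for coordinates; mm10, a mouse build, also appears in the processing notes, but the table's symbols are rat symbols.

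From the counts, filterByExpr and TMM in edgeR 4.0.16 (R 4.3.3) kept 13909 genes, at a cutoff of about 1.45 CPM. All 12 libraries were fitted together by quasi-likelihood (glmQLFit), with 8 residual degrees of freedom and a biological coefficient of variation of 59.2%. The standard error of a log2 fold change is its size divided by the square root of F. DESeq2 1.42.0, RLE scaling, other filters, EEP and CP alone, the replicate block, mitochondrial genes removed or their share as a covariate, and each patch library left out were alternatives. The pipeline was tested on simulated data. Counting intervals and the floor of 3 counts over a group cover counting error only, at 95% confidence. Total counts of all libraries ran from 4866790 to 8938227.

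Named genes were the 12 with the smallest p in each direction, the 4 with the smallest p in each list described, a few earlier results and defining markers. The members and the 36 gene lists were chosen with earlier results of these data known. QuantSeq reads cannot always separate near-identical gene copies.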

Additional observations from a re-analysis of the deposited data

How the results depend on the processing

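The number of genes called between EEP and CP was 0 at adjusted p thresholds of 0.01, 0.05 and 0.1, with RLE scaling, the stricter filter (5 CPM in at least 3 libraries), EEP and CP alone, mitochondrial genes removed, and the mitochondrial share as a covariate. It was 5 without a low-count filter and 1 with DESeq2. Leaving out each of the 6 libraries in turn, the count was 0 each time, and the mitochondrial share of counts, EEP against CP, differed by -34.99 to -6.29 percentage points, the smallest gap being that without EEP 1. With the replicate block the count was also 0, with 388 genes at an unadjusted p under 0.05 against 416 without it. Same-numbered EEP and CP libraries had deviations from their group means that correlated at 0.0484, 0.0148 and 0.1004, so the numbers were taken not to pair the samples, although each EEP library correlated best with the CP library of its own number, as a hint from the data and not the design. Genes at an unadjusted p under 0.05 numbered 173 with EEP and CP alone, 836 without a low-count filter and 559 with DESeq2; the cause was not tested. The 24 ranked genes kept their sign in all 330 pairs of gene and alternative, which their choice by the same comparison made likely. Of 36 list medians, 8 kept their sign under every alternative, and of 14 with a median of at least 0.25 in size 6 did. The median of all genes ran from -0.06 to 0.11 over the alternatives. Depth limits the low genes: nuclear counts were as low as 1202525 in EEP 3.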
